A study of Mus musculus with 49 samples.

Results

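Transcripts of 10 glycolytic enzymes were followed through 49 single cells of the mouse metanephric mesenchyme. The enzymes are Hk1, Hk2, Gpi1, Pfkl, Aldoa, Tpi1, Pgk1, Pgam1, Eno1 and Ldha, taken by gene symbol, and all 10 were among the 13093 genes with expression values. The metanephric mesenchyme is the tissue around the ureteric bud that gives rise to nephrons and to kidney stroma. All cells came from embryos of genotype Tg(Crym-EGFP)82Gsat at 11.5 dpc, on a mixed background and of both sexes, with no treatment named. The transgene puts EGFP under control of Crym, whose domain guided the dissection, and some cells outside the EGFP boundary were taken as well. Which embryo a cell came from is not named, and all 49 cells were therefore treated as a single sample. Cells are not replicates, and differences between classes of cells are therefore described with their spread and carry no p-values.

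Glycolysis converts glucose to pyruvate in the cytosol. Hexokinase traps glucose as glucose 6-phosphate and phosphofructokinase makes the committed step. The lower part of the pathway recovers the ATP that the upper part spends, and lactate dehydrogenase turns pyruvate into lactate, which regenerates the NAD+ that glycolysis needs. Six2 is a transcription factor that keeps nephron progenitors self-renewing, and Foxd1 is a transcription factor of stromal progenitors. Nephron progenitor self-renewal has been linked to glycolysis in the mouse, which is why the enzymes were set against Six2 and Foxd1 status.

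Values are RPKM, that is, read numbers scaled by gene length and by sequencing depth, so levels can be set side by side between genes. A gene was called detected in a cell at 1 RPKM or more. On this rule 18 cells had Six2 without Foxd1 (Six2-only cells), 9 had both, 7 had neither and 15 had Foxd1 without Six2 (Foxd1-only cells). Of 13093 genes, 3610 to 6510 were detected per cell (median 5210). Total reads are not in the files. The relative depth read from the steps between low values lay between 0.693 and 1.52 in 47 cells, against 0.0346 in cell 3 and 0.0462 in cell 7, whose values are coarse. Cell 25 had 11 of 12 ureteric bud genes and cell 27 had all 8 endothelial genes in the table, where no other cell had more than 3 and 1. A listed 0 can be a gene that was missed: Tbp, which every cell needs, was listed at 0 in 19 cells. No pair of cells held identical values, and the highest Spearman correlation between 2 cells was 0.625.

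Transcripts of every step were found in most cells, and hexokinase and phosphofructokinase were the lowest. By median RPKM over the 49 cells the order was Aldoa (694), Ldha (586), Eno1 (419), Pgk1 (419), Pgam1 (275), Tpi1 (264), Gpi1 (103), Pfkl (36.3), Hk2 (23.1) and Hk1 (0). Neighbours in this order overlapped in level. Aldoa was above Ldha in 28 of 49 cells, Ldha above Eno1 in 35, Pgk1 above Pgam1 in 34, Eno1 above Pgk1 in 23, Pgam1 above Tpi1 in 26 and Pfkl above Hk2 in 21. Tpi1 was above Gpi1 in 36 cells. The steps that separated better were Gpi1 above Pfkl, in 41 cells, and Hk2 above Hk1, in 36 of the 39 cells with either at 1 RPKM or more. Of the 10 enzymes, 7 to 10 were detected per cell (median 9). Aldoa, Ldha, Eno1, Pgk1, Pgam1 and Gpi1 were detected in all 49 cells, Tpi1 in 45, Pfkl in 42, Hk2 in 37 and Hk1 in 14.

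**Figure D1:**
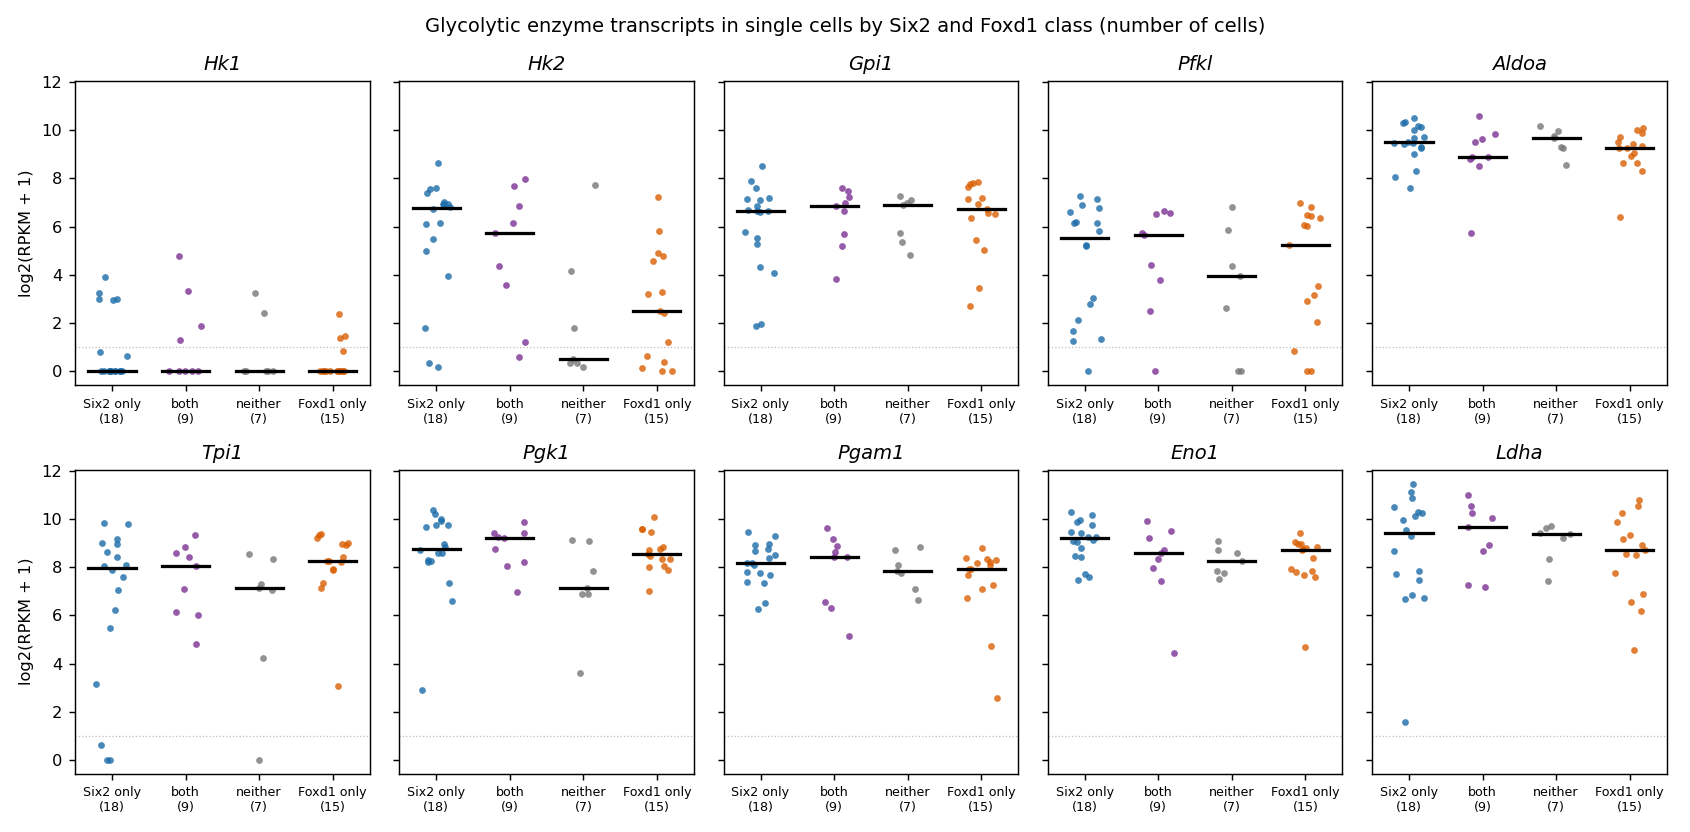
Level of each of the 10 enzymes, log2(RPKM + 1), in every cell, with cells split by detection of Six2 and Foxd1 at 1 RPKM (number of cells under each class); each point is 1 cell, the black line is the class median and the dotted line marks 1 RPKM. On this log2 scale Hk2 is the enzyme whose Six2-only median (107.8 RPKM) and Foxd1-only median (4.65 RPKM) lie furthest apart. The points of both classes overlap for every enzyme.

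Of the hexokinases Hk2 was detected in more cells than Hk1, and 10 cells had neither at 1 RPKM. Hk2, the insulin-responsive and growth-associated hexokinase, lies on chromosome 6, 82675021 to 82724448 in mm9, and was detected in 37 of 49 cells (75.5%, exact binomial 95% bounds 61.1 and 86.7%). Its level ran from 0 to 400.02 RPKM in cell 34, with 29 cells at 10 RPKM or more and 15 at 100 or more. In Six2-only cells Hk2 ran from 0.141 to 400.02 RPKM with a median of 107.8, against 0 to 148 RPKM with a median of 4.65 in Foxd1-only cells. Cells with both markers had 0.504 to 254 RPKM (median 52.8), and cells with neither had 0.129 to 213 RPKM (median 0.437). Hk2 reached 100 RPKM in 10 of 18 Six2-only cells and in 1 of 15 Foxd1-only cells. The classes overlapped all the same: cells 16 and 20 carried Six2 at 6.15 and 4.80 RPKM with Hk2 at 0.271 and 0.141 RPKM, while cell 11 carried Foxd1 at 15.6 RPKM with Hk2 at 148 RPKM.

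Hk1, the hexokinase of most adult tissues, on chromosome 10, 61731603 to 61842656, was detected in 14 of 49 cells (28.6%, interval 16.6 to 43.3%) and was listed at 0 in 32. Its highest value was 26.2 RPKM, in cell 31. That cell had both Six2 and Foxd1 and held Hk2 at only 1.32 RPKM. Hk1 exceeded Hk2 in 3 cells in all, cells 31 and 35 with both markers and cell 44 with neither. Hk2 made up more than 50% of the summed hexokinase level in 36 of the 39 cells with either gene at 1 RPKM or more, in 16 of 16 Six2-only cells, 7 of 9 cells with both markers, 3 of 4 with neither marker and 10 of 10 Foxd1-only cells. A gene in the table, 2210417K05Rik, overlaps Hk1, and these libraries keep no strand, so reads of the pair cannot be told apart.

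The promoter windows of both hexokinases are printed because 1 gene was found in most cells and the other in few. They run from 250 bases before to 50 after the annotated start and come from RefSeq (GRCm38.p6), whereas the expression table uses mm9. Capitals mark ACGTG and GCGTG, the core letters of hypoxia response elements, on either strand. On the opposite strand the first reads CACGT in print and the second reads CACGC, and no capitals mean that neither was found. Positions are those of the first printed base. Hk2 is chr6:82774405-82774704, minus strand, and Hk1 is chr10:62379859-62380158, minus strand at the first of its 2 listed starts.

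Hk2: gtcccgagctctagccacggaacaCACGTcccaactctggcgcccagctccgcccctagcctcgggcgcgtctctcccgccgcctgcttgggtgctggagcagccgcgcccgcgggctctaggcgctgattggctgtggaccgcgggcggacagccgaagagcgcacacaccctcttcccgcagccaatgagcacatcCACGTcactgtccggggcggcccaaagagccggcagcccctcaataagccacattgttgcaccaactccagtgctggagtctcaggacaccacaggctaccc

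Hk1: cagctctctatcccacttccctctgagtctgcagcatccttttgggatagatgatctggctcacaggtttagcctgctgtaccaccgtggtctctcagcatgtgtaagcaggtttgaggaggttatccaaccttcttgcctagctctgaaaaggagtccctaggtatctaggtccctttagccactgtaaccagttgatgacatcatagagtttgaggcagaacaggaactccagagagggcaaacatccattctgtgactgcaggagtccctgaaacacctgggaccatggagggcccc

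In the Hk2 window ACGTG stood at -226 and -52 relative to the start, and the Hk1 window held neither motif. For comparison, Aldoa and Ldha are the pair of enzymes whose levels were most alike over the cells, with a Spearman correlation of 0.613. Aldoa is chr7:126800398-126800697, minus strand at the first of 3 listed starts, and Ldha is chr7:46845554-46845853, plus strand at the first of 2.

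Aldoa: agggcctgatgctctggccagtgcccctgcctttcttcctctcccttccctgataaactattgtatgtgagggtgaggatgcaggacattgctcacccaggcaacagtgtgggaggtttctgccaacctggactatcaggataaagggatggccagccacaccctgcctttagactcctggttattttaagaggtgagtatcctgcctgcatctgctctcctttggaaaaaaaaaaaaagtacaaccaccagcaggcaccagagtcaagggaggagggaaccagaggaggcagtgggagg

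Ldha: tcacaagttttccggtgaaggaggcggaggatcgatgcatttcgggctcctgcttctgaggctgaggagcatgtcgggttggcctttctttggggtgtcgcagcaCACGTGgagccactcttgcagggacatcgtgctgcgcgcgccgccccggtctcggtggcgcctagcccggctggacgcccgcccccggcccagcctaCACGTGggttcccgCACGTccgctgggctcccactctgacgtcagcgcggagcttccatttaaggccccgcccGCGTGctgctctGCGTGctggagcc

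The Ldha window held ACGTG at -145, -144, -48, -47 and -34, where the first 4 come from 2 copies of the palindrome CACGTG counted on both strands, and GCGTG at 26 and 38. The Aldoa window held neither. Over the 10 enzymes ACGTG was present in 4 (Hk2, Pgk1, Pgam1 and Ldha), a share of 40%, against 25.9% of the 10085 genes of the table with a promoter in RefSeq and 19.7% of all 27025 promoters. GCGTG was present in 4 of 10 enzymes, or 40%, against 52.2% of genes of the table. CACGTG was present in 1 of 10, against 10.2%. Only the first listed start of each gene was searched, and Eno1 too has 3 listed starts. Which start was used in these cells is not known, so a motif near another start would be missed. These are matches of letters only, and no binding data were used.

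Gpi1, which converts glucose 6-phosphate to fructose 6-phosphate (chromosome 7, 34986346 to 35015324), ran from 2.62 RPKM in cell 34 to 368 RPKM in cell 8. Its class medians lay close together, at 100.1 RPKM in Six2-only cells, 115 with both, 119 with neither and 107 in Foxd1-only cells. Cell 34 is also the cell with the highest Hk2, so adjacent enzymes of the upper pathway were at opposite ends of their ranges in 1 cell. Pfkl, the liver-type phosphofructokinase (chromosome 10, 77449694 to 77472541), was listed at 0 in 6 cells and reached 156 RPKM in cell 5. It was detected in 17 of 18 Six2-only cells (median 46.0 RPKM) and 12 of 15 Foxd1-only cells (median 36.3 RPKM). Cells with neither marker had the lowest Pfkl median, 14.4 RPKM, with 5 of 7 cells detected.

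Aldoa, which splits fructose 1,6-bisphosphate (chromosome 7, 133938748 to 133943961), had the smallest SD of the 10 enzymes, 0.93 on the log2(RPKM + 1) scale. Relative to genes of similar mean level, however, that SD was above that of 63.9% of genes. It ran from 51.6 RPKM in the shallow cell 3 to 1561 RPKM in cell 21. Its medians were 724 RPKM in Six2-only cells and 608 RPKM in Foxd1-only cells.

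Tpi1, which interconverts the triose phosphates (chromosome 6, 124760610 to 124764314), was abundant in most cells and nearly undetected in a few. Its median was 264 RPKM and its highest value 911 RPKM in cell 51, yet cells 4, 8 and 44 were listed at 0 and cell 29 had 0.539 RPKM. Of the 6 cells under 10 RPKM, 4 were Six2-only (cells 4, 8, 29 and 33), 1 had neither marker and 1 was Foxd1-only, the shallow cell 7. Some of these cells held other enzymes in abundance: cell 4 had Aldoa at 1023 RPKM and Pgk1 at 853 RPKM, and cell 8 had Eno1 at 613 RPKM. Six2-only cells ran from 0 to 911 RPKM (median 248.7) and Foxd1-only cells from 7.34 to 660 RPKM (median 301). Tpi1 overlaps Spsb2 in the table, and the strand was not kept.

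Pgk1, which makes the first ATP of the pathway (chromosome X, 103382463 to 103399038), ran from 6.51 RPKM in cell 34 to 1342 RPKM in cell 36, with medians of 436 RPKM in Six2-only and 378 RPKM in Foxd1-only cells. Cells with neither marker had a median of 140 RPKM. Pgam1, the phosphoglycerate mutase (chromosome 19, 41986361 to 41993155), ran from 4.99 RPKM in cell 43 to 788 RPKM in cell 21, with a median of 285 RPKM in Six2-only cells and 245 RPKM in Foxd1-only cells. Eno1, the broadly expressed enolase (chromosome 4, 149611306 to 149622982), ran from 20.5 RPKM in cell 3 to 1247 RPKM in cell 5, with a median of 587 RPKM in Six2-only cells and 419 RPKM in Foxd1-only cells.

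Ldha, which reduces pyruvate to lactate (chromosome 7, 54101174 to 54110997), reached the highest value of the 10 enzymes. It ran from 2.01 RPKM in cell 20 to 2838 RPKM in cell 36, both Six2-only cells. Six2-only cells ran over this whole range with a median of 684 RPKM, and Foxd1-only cells ran from 22.8 to 1785 RPKM with a median of 415 RPKM. Cells with both markers had 143 to 2019 RPKM (median 805). In cell 20 the other subunit, Ldhb, stood at 435 RPKM, so lactate dehydrogenase transcripts were not missing there. Taken relative to genes of similar mean level, the SD of Ldha over cells was above that of 99.7% of genes. For Tpi1 it was above 99.9%, Pgk1 above 97.5%, Hk2 above 95.4% and Gpi1 above 13.3%. The remaining enzymes were Pgam1 at 92.9%, Eno1 at 84.9%, Aldoa at 63.9%, Pfkl at 58.1% and Hk1 at 16.2%.

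Parts of these transcripts are shared with other genes, processed copies among them. The share of 50-base words of the transcript found in another gene's transcripts was 72.2% for Eno1, 68.0% for Pgk1, 41.5% for Pgam1, 25.3% for Gpi1, 16.6% for Ldha and 13.5% for Aldoa. It was 7.51% for Tpi1, 2.55% for Hk1, 0.0543% for Pfkl and 0 for Hk2. The sources used here do not say how reads with several matches were counted, so the levels of Eno1, Pgk1 and Pgam1 in particular are uncertain. The copy Gm5506 followed Eno1 over all 49 cells with a Spearman correlation of 0.989 and lay below it in every cell.

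Six2-only cells were compared with Foxd1-only cells first, since each of these classes has 1 marker without the other. Of the 10 enzymes, 1 was higher by more than 1 on the log2(RPKM + 1) scale, Hk2, and 1 was lower, Tpi1. Over all 13093 genes 8.75% were higher by that much and 7.78% were lower, so both counts are near the background. Of the 10 differences 7 were above 0, against 6470 of all 13093 genes, with a median of 0.35 against 0 over all genes. Hk2 was 2.90 higher in Six2-only cells (mean 5.64, SD 2.49, 18 cells) than in Foxd1-only cells (mean 2.74, SD 2.34, 15 cells), and 99.8% of genes had a smaller difference. Hk2 was detected in 16 of 18 Six2-only cells (interval 65.3 to 98.6%) and 10 of 15 Foxd1-only cells (interval 38.4 to 88.2%). These intervals hold counting error over cells only and do not account for embryo or library index. Each class's SD was nearly as large as the difference.

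The other enzymes differed by less than the spread among cells. The difference was 0.84 for Eno1, 0.77 for Pgam1, 0.57 for Hk1, 0.37 for Aldoa, 0.34 for Pfkl, 0.28 for Ldha, -0.036 for Pgk1 and -0.36 for Gpi1. Tpi1 had a difference of -1.54 on this scale, with a mean of 6.55 (SD 3.34) in Six2-only cells against 8.09 (SD 1.56) in Foxd1-only cells. Its value rests on the few Six2-only cells near 0: as a log2 ratio of mean RPKM the difference was -0.29, and as a ratio of medians -0.28. Without the shallow cell 7 the Tpi1 difference was -1.90 and the Hk2 difference 2.88. The shallow cell 3 had both markers and is in neither class. With classes cut at 0.1 RPKM the Hk2 difference was 1.39.

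**Figure D2:**
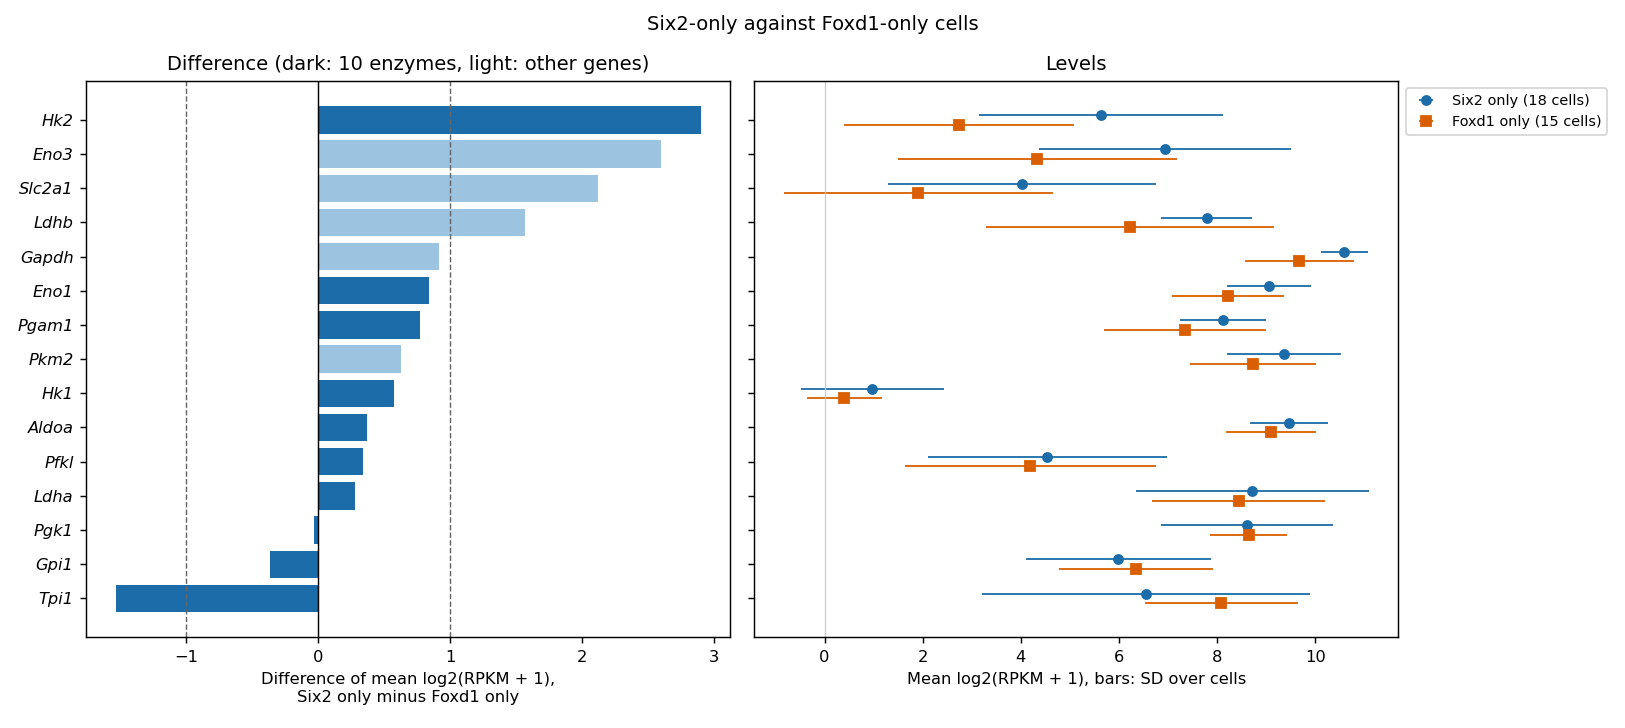
Left, difference of mean log2(RPKM + 1), Six2-only minus Foxd1-only cells, for the 10 enzymes (dark) and 5 further genes of glucose metabolism (light), with dashed lines at 1 and -1; right, class means (circles, Six2-only; squares, Foxd1-only) with SD over cells. Hk2 at 2.90, Eno3 at 2.60, Slc2a1 at 2.12 and Ldhb at 1.57 lie above 1, Tpi1 at -1.54 lies below -1, and SD bars of the classes overlap for every gene shown.

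Other measures were set against the same split. Over all genes 8.75% were higher and 7.78% lower by more than 1. The G2/M, dissociation stress and ureteric bud counts given here are near those shares. In Six2-only against Foxd1-only cells, 11 of 15 nephron progenitor genes were higher by more than 1 (median difference 1.83) and 14 of 17 stroma genes were lower (median -2.54), Six2 and Foxd1 themselves being used for the classes. The summed level of the nephron progenitor list ran from 251 to 2225 RPKM in Six2-only and from 7.62 to 752 RPKM in Foxd1-only cells, and that of the stroma list from 7.59 to 494 RPKM in Six2-only and from 345 to 1379 RPKM in Foxd1-only cells. Among G1/S genes 9 of 19 were higher (median 0.95), while the number of G1/S genes detected had a median of 15 in Six2-only and 14 in Foxd1-only cells. Among G2/M genes 2 of 26 were higher (median 0.37). The median number of genes detected was 4960.5 in Six2-only and 5232 in Foxd1-only cells, and 1 of 9 dissociation stress genes was higher. Of 12 ureteric bud genes 1 was lower and 0 higher, and of 8 endothelial genes none was past 1. Cell 27, which held the endothelial genes, had neither marker and is in neither class, so the endothelial count cannot reflect it. Without cell 25, which held most of the ureteric bud genes, the Hk2 difference was 3.03. With the trend on the number of genes detected removed it was 2.97. The part of the cell cycle in the enzyme differences was not tested.

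The column names also carry a library index, and sets that share its first digit did not hold the classes evenly. Set 1 held 5 Six2-only and 3 Foxd1-only cells, set 2 held 1 Six2-only and 5 Foxd1-only, set 6 held 6 Six2-only and 2 Foxd1-only, set 7 held 4 Six2-only and 1 Foxd1-only, and set 8 held 2 Six2-only and 4 Foxd1-only. In set 1 the median of Hk2 was 68.9 RPKM in Six2-only and 28.8 RPKM in Foxd1-only cells, and the difference of log2 means was -0.044. It was 3.43 in set 6 and 0.50 in set 8, and sets 2 and 7 had 1 cell in a class. The median difference over the 10 enzymes was 0.71, 0.63 and -0.024 in sets 1, 6 and 8. With the set as a term in a linear fit over all cells of both classes, the Hk2 difference was 2.49, the median over the enzymes 0.53 and the Tpi1 difference -0.89. Of the 6 cells with Tpi1 under 10 RPKM, 5 were in sets 6 and 7.

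Taking all cells by Six2 alone gave a like picture, though most cells are the same ones, so these values are not independent of those above. Hk2 had a median of 71.0 RPKM in 27 Six2-detected cells, 24 of them with Hk2, and 3.34 RPKM in 22 cells without Six2, 13 of them with Hk2. Its difference was 2.85, and it was the 1 enzyme of 10 higher by more than 1, where 7.31% of all genes were. No enzyme was lower by more than 1, where 3.60% of all genes were, but Tpi1 was at -1.01, -1.09 and -1.21 with classes cut at 0.1, 5 and 10 RPKM, against -0.59 at 1 RPKM. The median over the enzymes was 0.50 against 0.069 over all genes, and 8 of 10 were above 0, against 7196 of all 13093 genes. Over all 49 cells the Spearman correlation of Hk2 was 0.51 with Six2 and 0.55 with Crym, which encodes mu-crystallin. Crym and Six2 did not match in every cell. Cell 32 had Crym at 362 RPKM with Six2 at 0, and cell 8 had Six2 at 25.9 RPKM with Crym at 3.32 RPKM. All cells share the protocol and 1 sequencing run.

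**Figure D3:**
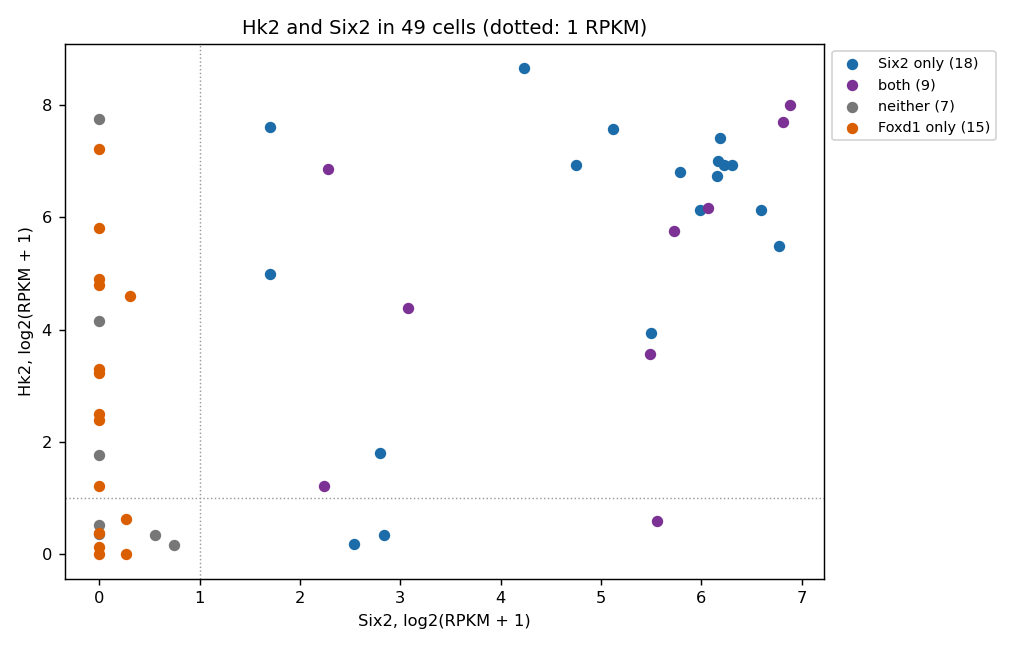
Hk2 against Six2 in the 49 cells, both as log2(RPKM + 1), coloured by Six2 and Foxd1 class, with dotted lines at 1 RPKM. Of 27 cells with Six2, 24 also had Hk2, whereas cells without Six2 are spread over the range of Hk2 up to 213 RPKM, with 13 of 22 detected.

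Cells with Foxd1 (24) were then set against cells without it (25). Hk2 had a difference of -1.11, with medians of 9.81 RPKM with Foxd1 and 68.9 RPKM without, and was the 1 enzyme of 10 lower by more than 1, where 3.00% of all genes were. It was detected in 18 of 24 cells with Foxd1 and 19 of 25 without. Tpi1 was 1.44 higher, with medians of 301 RPKM with Foxd1 and 191 RPKM without, and was the 1 enzyme higher by more than 1, where 5.42% of all genes were. With classes cut at 0.1 RPKM these differences were -0.15 for Hk2 and 0.55 for Tpi1, and as ratios of mean RPKM they were -0.95 and 0.33, so neither stayed past 1. The median over the enzymes was -0.13 against 0.065 over all genes. Cells without Foxd1 include all 18 Six2-only cells, and among cells with Foxd1 the 9 that also had Six2 held Hk2 at a median of 52.8 RPKM, against 4.65 RPKM in the 15 Foxd1-only cells.

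Among the 27 cells with Six2, Cited1, a coregulator found in the least committed nephron progenitors, was detected in 12 and not in 15. Hk2 was 1.25 higher with Cited1, with medians of 118 RPKM with and 43.9 RPKM without, and was the 1 enzyme of 10 higher by more than 1, where 10.3% of all genes were. Hk2 was detected in 11 of 12 cells with Cited1 and 13 of 15 without, and its range of 0.141 to 206 RPKM with Cited1 lay almost wholly within that of 0.271 to 400.02 RPKM without. No enzyme was lower by more than 1, where 3.47% of all genes were. Ldha came nearest, with a difference of -0.74, although its medians were 744 RPKM with Cited1 and 746 RPKM without. Cell cycle, stress genes and breadth of detection differed along this split, and their part in the Hk2 difference was not tested. With Cited1, 23 of 26 G2/M genes were higher by more than 1 (median difference 2.02), and a median of 25.5 of them were detected, against 10 without Cited1. Of 9 dissociation stress genes 4 were higher (median 0.92). The median number of genes detected was 5801 with Cited1 and 5043 without. With the trend on the number of genes detected removed the Hk2 difference was 0.73, and as a ratio of mean RPKM it was 0.27.

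The 10 enzymes took a median of 0.608% of the summed RPKM of a cell, from 0.126% in the shallow cell 3 to 1.63% in cell 36. The median share was 0.678% in Six2-only cells (0.274 to 1.63%), 0.725% with both, 0.563% with neither (0.332 to 0.786%) and 0.565% in Foxd1-only cells (0.291 to 1.06%). The order of Six2-only and Foxd1-only cells depended on the measure. For the mean log2(RPKM + 1) of the 10 enzymes per cell, the median was 6.47 in Six2-only and 6.56 in Foxd1-only cells. The class means of that measure were 6.77 (SD 1.11) and 6.35 (SD 0.81). The classes overlapped. Of the 10 cells with the highest share, 7 were Six2-only, 2 had both markers and 1 was Foxd1-only, while of the 10 with the lowest share 4 were Six2-only, 3 had both, 2 had neither and 1 was Foxd1-only. Cells 36 and 5 led with Ldha at 2838 and 2248 RPKM, Eno1 at 1143 and 1247 RPKM and Pgk1 at 1342 and 857 RPKM. At the other end, cell 20 had Ldha at 2.01 RPKM and Gpi1 at 2.86 RPKM but Tpi1 at 234 RPKM. Cell 44, with the fewest genes detected of all, had Pgk1 at 11.3 RPKM beside Aldoa at 825 RPKM.

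**Figure D4:**
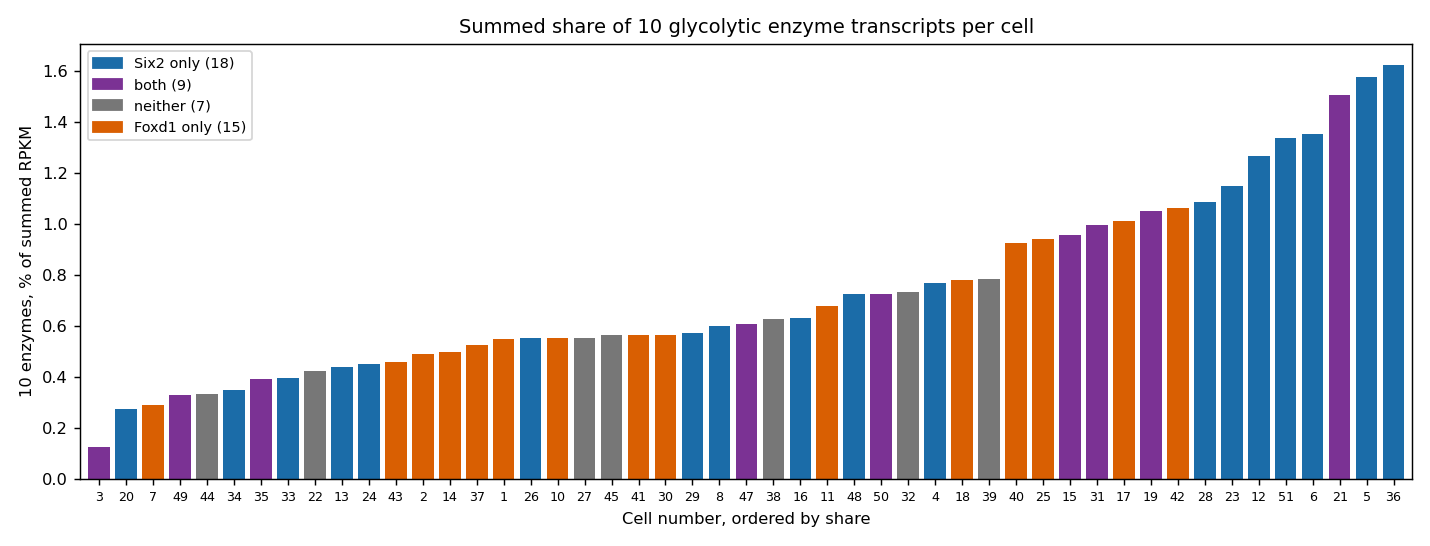
Summed RPKM of the 10 enzymes as a percent of the summed RPKM of the cell, 1 bar per cell in increasing order, coloured by Six2 and Foxd1 class. Shares run from 0.126% in cell 3 to 1.63% in cell 36, with 7 Six2-only cells among the highest 10 and every class present over the lower part.

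At steps with several isozymes, 1 of them was the highest in most cells. Of the phosphofructokinases at least 1 reached 1 RPKM in 44 cells, and in these Pfkl held a median of 99.7% of the summed level and more than 50% in 34 cells. Pfkm, the muscle type, was the highest in 9 of the 44, which were 2 of 17 Six2-only cells, 2 of 8 with both markers, 2 of 5 with neither and 3 of 14 Foxd1-only cells. Pfkm overlaps Senp1 in the table, and reads of the pair cannot be told apart without strand. Pfkp, the platelet type, was detected in 1 cell. Eno1 held a median of 75.2% of the enolase level. The remainder was almost all Eno3, the enolase of muscle (median 24.8%), which exceeded Eno1 in 5 cells, and Eno2, the neuronal enolase, was detected in 1 cell. Ldha held a median of 73.4% of lactate dehydrogenase and Ldhb exceeded it in 11 cells, 6 Six2-only, 0 with both, 2 with neither and 3 Foxd1-only. Eno3 had no 50-base word in common with another gene's transcripts, while Ldhb shared 27.0%.

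Further genes of the pathway were taken from a list of 19, of which 12 were in the table and the others were not analysed here. Of the 12, 3 were higher by more than 1 and 0 lower in Six2-only against Foxd1-only cells, beside 8.75% higher and 7.78% lower over all genes, and Eno3 and Ldhb were the enzymes of glycolysis among the 3. Eno3 was 2.60 higher, with a median of 245 RPKM in Six2-only cells (16 of 18 detected) and 39.6 RPKM in Foxd1-only cells (12 of 15 detected). Ldhb was 1.57 higher, with medians of 209 RPKM in Six2-only and 120 RPKM in Foxd1-only cells, ranging from 48.7 to 608 RPKM in Six2-only and from 0 to 1563 RPKM in Foxd1-only cells. The 1563 RPKM are those of cell 25, which also held 11 of 12 ureteric bud genes, and the next highest Foxd1-only cell had 603 RPKM. As a log2 ratio of mean RPKM the Ldhb difference was 0.095, and without cell 25 it was 1.88 on the log2(RPKM + 1) scale. With the index set as a term these differences were 2.37 for Eno3 and 0.83 for Ldhb. The third gene, Pgam5, a mitochondrial phosphatase named for its likeness to the mutase, was 1.86 higher. Gapdh and Pkm2, which complete the pathway between the enzymes above, were detected in all 49 cells at medians of 1350 and 615 RPKM. Gapdh was 0.92 higher, with medians of 1538 RPKM in Six2-only and 970 RPKM in Foxd1-only cells, and Pkm2 was 0.62 higher, with a median of 826 RPKM in Six2-only cells and 585 RPKM in Foxd1-only cells. Copies share 82.5% of the words of Gapdh and 34.4% of those of Pkm2, so both levels are uncertain.

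Of 8 genes for glucose and lactate transport, 7 were in the table, and 2 were higher and 0 lower by more than 1 in Six2-only against Foxd1-only cells, beside 8.75% higher and 7.78% lower over all genes. Slc2a1, the glucose transporter GLUT1, was 2.12 higher, with a median of 23.6 RPKM in Six2-only cells (13 of 18 detected) and 0 in Foxd1-only cells (6 of 15 detected). It was 2.40 higher with the index set as a term. Hk2 and Slc2a1 were detected together in 27 cells, with a Spearman correlation of 0.32 over the 49. Slc16a3, a lactate exporter, was 1.03 higher, with 6 of 18 Six2-only and 1 of 15 Foxd1-only cells detected. Bsg, the chaperone of the lactate transporters, was found in all 49 cells (median 105 RPKM) and had a difference of -0.15.

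Among 13 of 14 listed regulators, 2 were higher and 0 lower by more than 1 in the same comparison, against the same 8.75% and 7.78% of all genes. Myc, a transcription factor that acts on many glycolytic genes, was 2.11 higher and was detected in 14 of 18 Six2-only and 3 of 15 Foxd1-only cells, and Mycn was 1.03 higher. Hif1a, the oxygen-regulated subunit of hypoxia-inducible factor, had a difference of -0.99, with medians of 6.11 RPKM in Six2-only and 10.3 RPKM in Foxd1-only cells. Of 9 hypoxia response genes in the table (13 listed), Ankrd37 (1.18), Kdm3a (1.01) and Slc2a1 were higher by more than 1, and Bnip3 (-1.06) and P4ha1 (-1.47) were lower, against that same background of 8.75% and 7.78%.

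Neighbouring pathways were described in the same way, beside 8.75% of all genes higher and 7.78% lower by more than 1. In the pyruvate entry list 1 of 12 genes was higher and 0 lower. It was Pdp2, a phosphatase that activates pyruvate dehydrogenase (2.17, medians of 46.7 RPKM in Six2-only and 6.50 RPKM in Foxd1-only cells). In the citric acid cycle 3 of 17 were higher, Suclg2 (2.76), Idh3a (1.03) and Dlst (1.00), and Idh3b was lower (-1.14). In the pentose phosphate pathway 0 of 7 were higher and 2 lower, G6pdx (-1.08) and Taldo1 (-1.49), the second with 27238 RPKM in the shallow cell 7. None of the 3 gluconeogenesis genes in the table (7 listed) was past 1 in either direction.

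Over cells the levels of most enzymes were positively correlated. The median Spearman correlation over the 45 pairs of enzymes was 0.318 and 42 pairs were above 0, against a median of 0.0315 over 10371735 pairs of the 4555 genes detected in at least 25 cells. Of those 10371735 pairs, 6028569 were above 0. These background genes were not matched to the enzymes in level or detection. Lists outside the 10 enzymes followed them too. The mean of the housekeeping list had a correlation of 0.455 with the mean of the enzymes, and that of the pyruvate entry list 0.471. The nephron progenitor list had 0.238 and the stroma list -0.100. Without Hk1, which was listed at 0 in most cells, all 36 pairs were above 0 (median 0.347). The highest pairs were Aldoa with Ldha (0.613), Aldoa with Pgam1 (0.577) and Tpi1 with Ldha (0.560). Ldha followed the mean of the other 9 enzymes most closely (0.759), then Eno1 (0.585) and Pgam1 (0.548), and Hk2 (0.257) and Hk1 (0.188) followed it least. Points in these correlations are cells that share the protocol and 1 sequencing run. The number of genes detected had a correlation of 0.364 with the mean of the enzymes, against a median of 0.150 over genes, and of 0.184 with their summed share, and relative depth had 0.122 and 0.112.

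**Figure D5:**
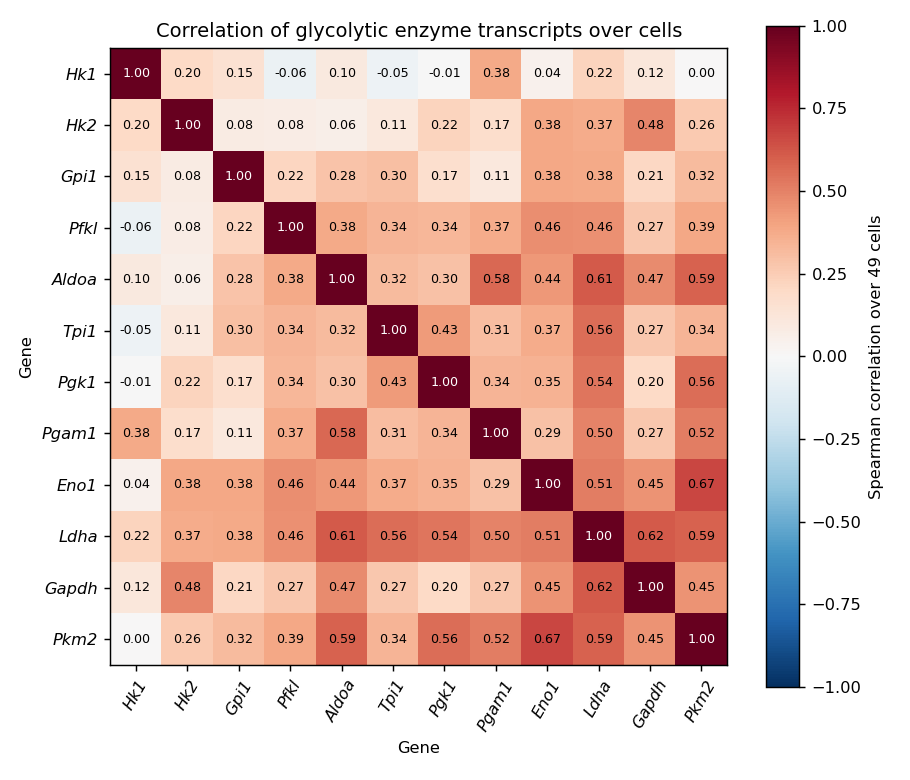
Spearman correlation over the 49 cells between the 10 enzymes, with Gapdh and Pkm2 in the last rows. Ldha has 0.613 with Aldoa, 0.560 with Tpi1, 0.535 with Pgk1, 0.511 with Eno1 and 0.496 with Pgam1. The highest values of Hk1 with other genes are 0.379 with Pgam1 and 0.224 with Ldha, and its lowest is -0.062 with Pfkl.

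The 8 genes outside the 10 whose level was most like the mean of the enzymes over the 49 cells were Gm5506 (Spearman correlation 0.675), Cnbp (0.663), Gm4735 (0.624), Pkm2 (0.610), Mif (0.595), Ptma (0.577), Ran (0.571) and Fkbp2 (0.568). Gm5506 and Gm4735 share 70.5% and 52.8% of the words of Eno1, so their likeness is not separate from it. Pkm2 is the next enzyme of the pathway itself, and Gapdh had 0.527.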

How the data were processed

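Single cells were captured on a Fluidigm C1 chip whose sites were inspected by microscope, amplified with SMARTer chemistry, tagmented with Nextera XT and sequenced on a HiSeq2500, per the labels' protocols. This keeps no strand and no molecular identifiers. The authors deposited RPKM values, per the file headers. The submitters' processing notes name TopHat 1.4.1, DESeq and mm9, with no role or order. The sources used here do not give the read counter or the annotation. All 13093 genes exceeded 3 RPKM in at least 1 cell, and the authors' other column, the count of such cells, matched. Total reads are unknown. The number of unused columns of per-cell values was 0. Whether tabulated starts count from 0 or 1 is not given.

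From these values, detection (1 RPKM), differences of mean log2(RPKM + 1) with a pseudocount of 1, exact binomial intervals (95%, counting error only) and Spearman correlations were computed with Python 3.11.15, numpy 2.4.6, scipy 1.17.1 and pandas 2.3.3. This scale understates changes of low genes. A gene counted as higher or lower past 1 on the log2 scale. Relative depth came from the ratio of values below 8 RPKM. Relative depth was tested on simulated counts and the correlations against scipy. The differences were tested on permuted values with added changes, in abundant genes detected in nearly all cells. That test did not cover genes missed in more cells, such as Hk1, Hk2 and Pfkl. Copies were searched as 50-base words in GENCODE vM21 transcripts. No cell was filtered and no doublet caller was run.

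All 10 enzymes are named. Of other lists, isozymes and up to 6 genes per list with the highest median or largest difference are named, and so are the 8 genes most like the enzymes among those detected in at least 25 cells. The enzymes, lists and comparisons were chosen with earlier results of these data known. Class thresholds of 0.1, 5 and 10 RPKM, pseudocounts of 0.1 and 10, 2 rescalings, removal of the trend with genes detected, ratios of means or medians and sets of cells left out were tried as alternatives. The index sets were looked at after the data were seen.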

Additional observations from a re-analysis of the deposited data

How the results depend on the processing

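No paired analysis was possible because all cells form 1 group with no embryo named. Of the values that answer a comparison, 97 under the alternatives moved by less than the spread or, for counts and levels, by no more than 1.5 times, and 4 counts moved by more. The sign of the median enzyme difference turned by Foxd1 as ratios of medians (0.022, against -0.13) and in Six2-only against Foxd1-only cells within index set 8 (-0.024, against 0.35). In Six2-only against Foxd1-only cells, 2 enzymes were higher by more than 1 at a class threshold of 10 RPKM and 2 as ratios of mean RPKM, and 0 were lower as ratios of means or of medians. The median enzyme difference ranged from -0.024 to 0.71 for that comparison, 0.13 to 0.58 by Six2, -0.49 to 0.022 by Foxd1 and 0.11 to 0.58 by Cited1. The Hk2 difference ranged from -0.044 to 4.27, 1.74 to 4.05, -2.69 to -0.15 and 0.27 to 2.10 in the same order. Alternatives chosen after seeing the data also turned the Hk2 difference within index set 1 (-0.044) and the Tpi1 difference within index set 8 (0.32). As a log2 ratio of means, Ldhb was -0.067 by Six2, against 1.17, and 0.095 in Six2-only against Foxd1-only cells, against 1.57. The causes were not tested. The share of all genes higher by more than 1 in Six2-only cells ran from 1.57% at a pseudocount of 10 to 17.0% as ratios of means. The median correlation among the enzymes ranged from 0.223 to 0.325 and the median share from 0.608 to 0.625%. Cells with Hk2 numbered 47 at 0.1 RPKM and 29 at 10 RPKM, and cells with Hk1 2 at 10 RPKM. Total reads are unknown, so the part of depth in these counts was not tested.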

Other observations

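Among the 4555 genes detected in at least 25 cells, those most opposed in level to the mean of the enzymes were singled out after their values were seen. They were Malat1, a nuclear long noncoding RNA (Spearman correlation -0.573 over the 49 cells), Lars2, the mitochondrial leucyl-tRNA synthetase (-0.489), Gm17821 (-0.456), Ptprs, a receptor phosphatase (-0.430), and Ssbp2, a single-strand DNA binding protein (-0.419). The median over all 4555 genes was 0.0996. Malat1 had a median of 685 RPKM, and its difference, Six2-only minus Foxd1-only cells, was -0.70 on the log2 scale. The points are cells that share the protocol and 1 sequencing run.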
